A study of Homo sapiens with 66 samples.

Results

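CCND1, CCND2, CCND3, CCNE1, CCNE2, CDK2, CDK4, CDK6 and CDC25A encode the D- and E-type cyclins, the kinases they activate and the phosphatase that releases CDK2 from inhibition. These 9 genes were chosen by symbol, as the machinery that takes a cell from G1 into S phase, out of 57992 genes counted in the series. The rule uses no measured value, but it was written with earlier results of these data known. RNA was sequenced from 11 acute myeloid leukemia (AML) cell lines, each kept in medium alone or exposed for 24 hours to etoposide. Etoposide is a topoisomerase II poison: it traps the enzyme on cut DNA, so that double-strand breaks persist. There were 3 libraries for each line and condition, 66 in all. The comparisons ask how much of each gene the lines made before the drug and how that level changed after it.

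The lines were THP-1, MONO-MAC-6, MOLM-13, NOMO-1, MV-4-11, OCI-AML3, OCI-AML2, NB-4, HL-60, KASUMI-1 and F-36P, which the labels write without hyphens. Each line is a culture of 1 donor's leukemia, so genotype and subtype cannot be told apart from the line. Etoposide was given at the IC50 of each line, so line and dose cannot be told apart either. The untreated arm received medium and no drug. Cells of 3 wells were pooled for each RNA sample. The study describes its experiments in general as 3 biological replicates, and the labels do not say how the 3 libraries of a group were kept apart, so p-values measure the spread between these samples. The study set aside the etoposide libraries of OCI-AML2 for the quality of their raw reads. That line therefore enters the untreated levels, is given apart for the change, and is in no count over 10 lines. Shares within a family after etoposide are given for all 11 lines and so include its set-aside libraries.

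In textbook terms, D-type cyclins link growth factor signals to the cell cycle. They bind CDK4 and CDK6, and the complexes begin to phosphorylate the retinoblastoma protein, which holds E2F transcription factors in check. Released E2F raises the E-type cyclins, which bind CDK2 and complete the step into S phase. CDC25A removes inhibitory phosphates from CDK2. After DNA damage the p53 target CDKN1A (p21) binds and inhibits the CDK2 complexes, and CDC25A protein is degraded. CDK6 is the prominent partner of D-type cyclins in blood cells and is a known dependency of leukemias with rearranged KMT2A.

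Promoters of CCND3, CCNE1, CDK4, CDK6 and CDC25A were found in the RefSeq promoter table (GRCh38.p14), 5 of 9. CCND1, CCND2, CCNE2 and CDK2 had no entry. The 250 bases before the start were searched on both strands for an E2F-like word, since E2F and these kinases regulate each other. The words were TTTGGCG and its variants TTTCGCG, with TTTCCCG and then TTTGCCG also counted. CDC25A held 1 such word, beginning at position -44 from the start, and the other 4 promoters held none of these letters. Of 27305 promoters, 7.35% held at least 1. The words TTTGAA and TTCGAA, cores of the cell cycle element of mitotic genes, were in none of the 5 and in 14.59% of all promoters. The promoters of CDC25A (chr3:48188418-48188667, minus strand) and CCNE1 (chr19:29811741-29811990, plus strand) are shown because these genes moved up in some lines and down in others, and that of CDK6 (chr7:92836574-92836823, minus strand) because it had the deepest fall. They read 5′ to 3′ toward the start, with the E2F-like word in capitals.
CDC25A: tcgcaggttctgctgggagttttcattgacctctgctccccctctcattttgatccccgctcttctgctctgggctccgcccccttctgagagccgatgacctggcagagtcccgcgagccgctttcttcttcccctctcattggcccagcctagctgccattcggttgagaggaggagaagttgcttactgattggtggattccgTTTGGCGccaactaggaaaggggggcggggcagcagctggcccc
CCNE1: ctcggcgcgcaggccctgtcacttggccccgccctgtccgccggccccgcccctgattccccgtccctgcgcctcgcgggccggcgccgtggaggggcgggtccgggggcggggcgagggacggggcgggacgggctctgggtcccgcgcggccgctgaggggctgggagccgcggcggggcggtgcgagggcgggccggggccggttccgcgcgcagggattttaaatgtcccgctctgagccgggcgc
CDK6: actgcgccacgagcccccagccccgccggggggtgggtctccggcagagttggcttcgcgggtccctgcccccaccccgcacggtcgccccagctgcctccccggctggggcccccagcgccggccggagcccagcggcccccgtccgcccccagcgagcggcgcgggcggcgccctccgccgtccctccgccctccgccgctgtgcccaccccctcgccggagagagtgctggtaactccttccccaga
All 3 promoters are rich in G and C.

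Libraries held between 17997404 and 24101670 reads on genes. Levels are given as CPM, the reads of a gene scaled to a common library size, scaled within a line for the change and over the 33 untreated libraries for comparison between lines. The myeloid and leukocyte genes SPI1, CD33 and PTPRC were present in all 11 untreated lines, SPI1 at 107 to 203 CPM. F-36P stood apart by the erythroid genes GATA1 at 253 CPM and KLF1 at 231 CPM. Its myeloid genes were uneven. MPO was at 0.977 CPM, CEBPA at 0.552 CPM and CSF3R at 42.6 CPM, but CD33 at 141 CPM and LYZ at 167 CPM. MPO was also low in OCI-AML3 (2.99 CPM), MV-4-11 (9.4 CPM) and THP-1 (9.96 CPM), and LYZ was at 2.65 CPM in HL-60. CD3D reached 156 CPM in NOMO-1, where CD3E was at 3.3 CPM and CD2 at 0.293 CPM. EPCAM reached 81.9 CPM in KASUMI-1, where CDH1 was at 0.0554 CPM, and 10.1 CPM in NB-4. CDH1 reached 26.6 CPM in F-36P, while KRT19 was at 0 in every line. CDKN1A passed upwards in each of the 10 lines and in OCI-AML2. It is named here as the check on the exposure.

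By gencode 44 on GRCh38, CCND1 (ENSG00000110092.3) spans chr11:69641156-69654474, CCND2 (ENSG00000118971.7) chr12:4269771-4305353 and CCND3 (ENSG00000112576.12) chr6:41934934-42050357. CCNE1 (ENSG00000105173.13) spans chr19:29811991-29824312 and CCNE2 (ENSG00000175305.17) lies on chromosome 8. CDK2 (ENSG00000123374.10) spans chr12:55966781-55972789, CDK4 (ENSG00000135446.16) chr12:57747727-57756013, CDK6 (ENSG00000105810.9) chr7:92604921-92836573 and CDC25A (ENSG00000164045.11) chr3:48157146-48188417. Exons of CCND1, CCND2, CCNE2, CDK2, CDK4 and CDK6 overlap a named gene on the opposite strand, and of 756 genes wholly inside an exon on the opposite strand 484 had reads, which counting without strand would have left at 0.

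Over 10 lines, 85 of the 90 gene-by-line pairs had enough reads to be tested. The study's rule, a false discovery rate (FDR) below 0.05 and a fold change above 2, called 11 pairs induced (12.9%) and 3 repressed (3.53%). Over all genes the same rule called 11.1% of pairs induced and 3.96% repressed. With the FDR alone 30 pairs passed upwards (35.3%) and 25 downwards (29.4%), against 27.7% and 24.4% of all pairs. These shares were close to those of all genes for the study's rule and somewhat higher for the FDR alone. Their median log2 fold change was 0.08, and that of all genes tested 0.01. The differences lay between members and between lines. Scaling by library size alone shifted the median of all genes by up to 0.25 on the log2 scale, in F-36P, and with it 36 member pairs passed upwards and 22 downwards. Over all genes it moved the share of upward pairs among those passing from 53.1% to 64.7%. In bulk RNA, a change in the share of cells in a phase and a change of RNA per cell cannot be told apart.

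**Figure D1:**
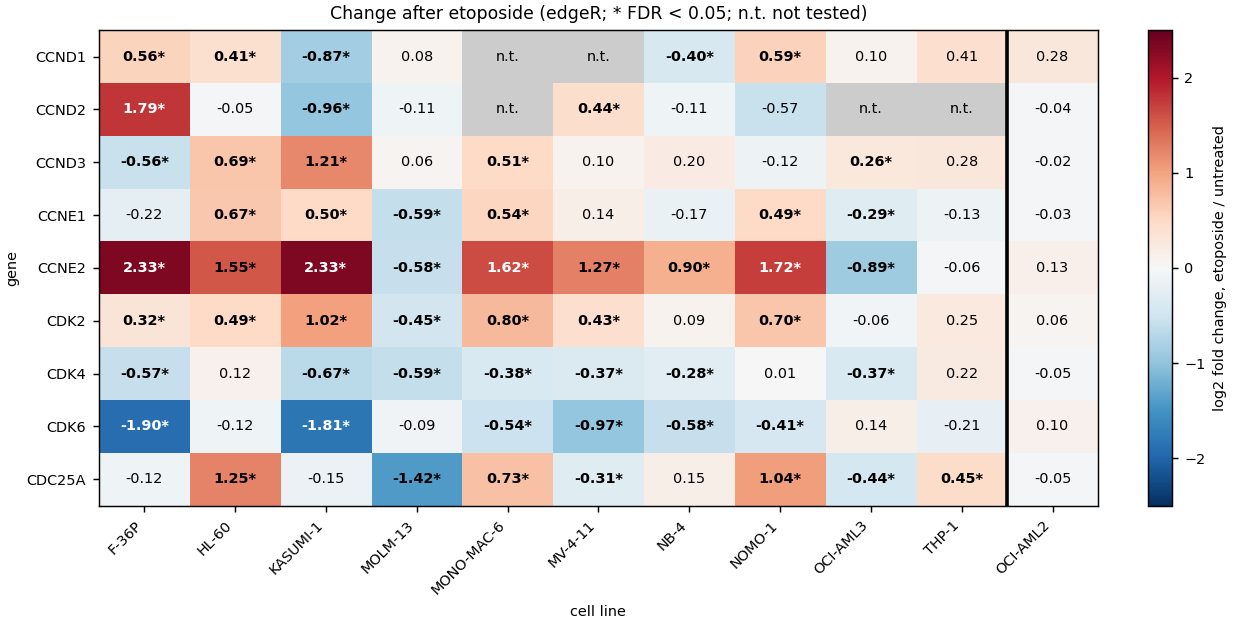
Log2 fold change (etoposide over untreated) of each gene, in rows, in each cell line, in columns, from edgeR. Red is higher and blue lower after etoposide, a star marks an FDR below 0.05, grey cells were not tested, and OCI-AML2 stands apart on the right. CCNE2 passed upwards in 7 of 10 lines and CDK4 downwards in 7, while no gene passed in OCI-AML2.

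CCND2 and CCND1 were the members whose untreated levels differed most between lines, by their F. CCND2, the D cyclin of many lymphoid and myeloid progenitors, ran from 316 ± 12.3 CPM (SD, n = 3) in HL-60 to 0.0483 ± 0.00132 CPM in OCI-AML3, where 3 libraries held 3 reads between them. It was also high in NB-4 (202 ± 4.03 CPM), KASUMI-1 (176 ± 13.5 CPM) and MOLM-13 (79.1 ± 4.72 CPM). The remaining 7 lines had 7.68 CPM or less. Only 0.132% of genes had a larger F for the difference between lines (edgeR F test, FDR 4.17e-39). CCND1, the D cyclin best known from solid tumors, was highest in NB-4 (70.2 ± 1.61 CPM) and HL-60 (63.8 ± 1.05 CPM), which did not differ beyond their spread (FDR 0.206). It followed in NOMO-1 (46.1 ± 2.16 CPM), OCI-AML3 (35.2 ± 3.18 CPM) and F-36P (11.9 ± 0.669 CPM). KASUMI-1, THP-1 and MOLM-13 lay between 5.81 and 6.85 CPM, each without a difference from the next. CCND1 was near the detection limit in MONO-MAC-6 (0.0801 ± 0.0281 CPM) and MV-4-11 (0.234 ± 0.0982 CPM). CCND3, the most widely used D cyclin of blood cells, lay between 88.5 and 542 CPM in 10 lines and was at 16.4 ± 1.26 CPM in KASUMI-1. Its highest levels were 542 ± 78.5 CPM in F-36P and 460.0 ± 9.41 CPM in OCI-AML2. All 9 genes passed the test between lines, as did 99.4% of all genes.

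**Figure D2:**
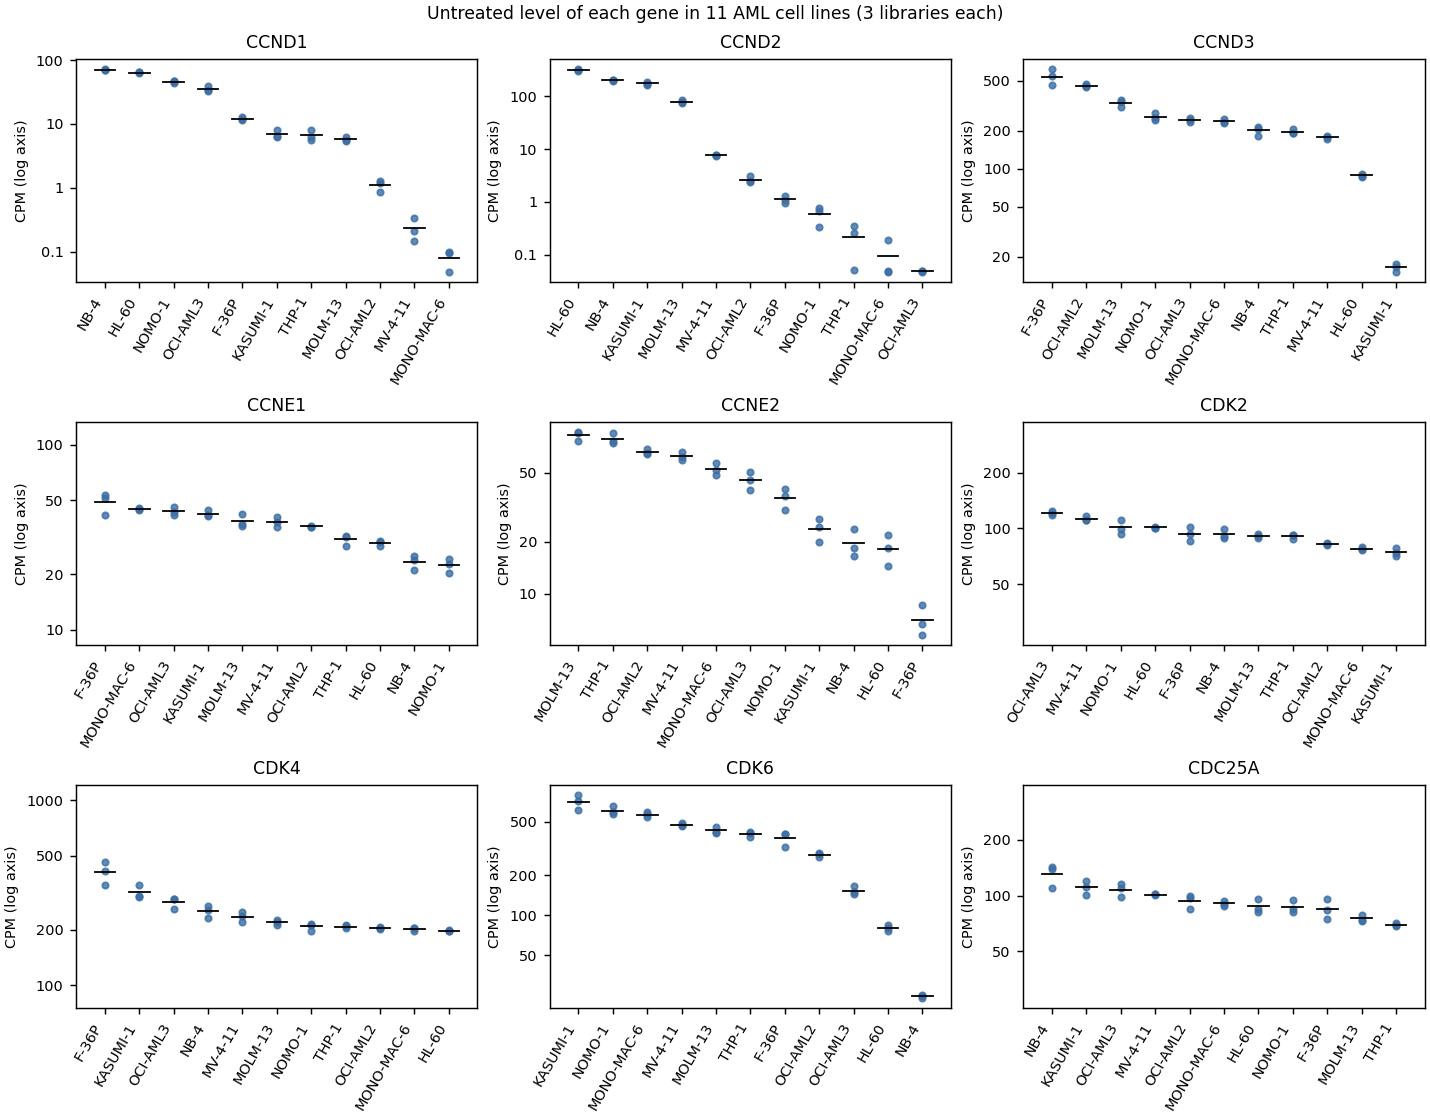
CPM of each gene in the 33 untreated libraries, on a log axis that differs between panels. Points are libraries, black bars are means of 3, and lines are ordered from high to low within each panel. CCND1 and CCND2 fall over several powers of 10, from 70.2 to 0.0801 CPM and from 316 to 0.0483 CPM, while CDK2 stays between 74.4 and 121 CPM.

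Because the genes differ in length, the D cyclins were compared with each other as shares of reads per base of exon. CCND3 held the largest share in 9 of 11 untreated lines, from 46.6% in NB-4 to 99.9% in MONO-MAC-6. CCND2 led in HL-60 (57.9%) and KASUMI-1 (83.7%). By merged exons NB-4 was the most mixed line, with 19.6% CCND1, 33.7% CCND2 and 46.6% CCND3. This rests on the length used. With the longest transcript untreated NB-4 had 12.7% CCND1, 22.7% CCND2 and 64.6% CCND3. HL-60 was then more even, with 15.4%, 47.0% and 37.7%, and it was so with the canonical transcript too. After etoposide the same gene led in every line, the set-aside libraries of OCI-AML2 included. Yet the share of CCND3 in KASUMI-1 rose from 10.9% to 35.2% and did not overlap between conditions. With the length of the longest or of the canonical transcript, CCND3 led all 11 lines after etoposide. The leader in HL-60 and KASUMI-1 after etoposide thus rests on the length used.

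Etoposide moved the D cyclins in different directions. In KASUMI-1, CCND2 fell and CCND3 rose. CCND2 stood at 172, 166 and 189 CPM before and 89.4, 94.4 and 87.1 CPM after etoposide (log2 fold change -0.96, SE 0.0818, FDR 8.87e-06). CCND3 stood at 15.1, 17.6 and 16.5 CPM before and 36.5, 43.7 and 33.7 CPM after etoposide (log2 fold change 1.21, SE 0.119, FDR 2.18e-05). No library of one condition overlapped with the other for either gene, and CCND1 also fell there (log2 fold change -0.87, SE 0.16, FDR 0.0011). In F-36P the directions were reversed. CCND2 was at 1.3, 1.16 and 1.06 CPM before and 4.43, 4.14 and 3.62 CPM after etoposide (log2 fold change 1.79, SE 0.199, FDR 4.16e-05), a rise from a low level. CCND3 was at 628, 582 and 508 CPM before and 364, 406 and 396 CPM after etoposide (log2 fold change -0.56, SE 0.111, FDR 0.00156). CCND1 rose in F-36P (log2 fold change 0.56), HL-60 (0.41) and NOMO-1 (0.59) and fell in NB-4 (-0.40) as well as KASUMI-1.

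In HL-60, CCND3 was at 92.9, 93.3 and 98.4 CPM before and 136, 176 and 146 CPM after etoposide (log2 fold change 0.69, SE 0.102, FDR 0.00029). In MONO-MAC-6, where CCND3 made nearly all of the D cyclin RNA, it was at 239, 258 and 246 CPM before and 343, 370.5 and 343 CPM after etoposide (log2 fold change 0.51, SE 0.0476, FDR 2.43e-06). Every etoposide library lay above every untreated one in both lines. In OCI-AML3 it also passed (log2 fold change 0.26, SE 0.0805, FDR 0.0331), a call lost under 11 of 17 other settings. CCND3 did not pass in MOLM-13, MV-4-11, NOMO-1, THP-1 and NB-4. In NB-4 same-numbered libraries were correlated in these data, though the labels state no pairing. With the replicate as a block CCND3 passed there (edgeR, log2 fold change 0.20, FDR 0.00938), against an FDR of 0.0556 without it. CCND2 passed upwards in MV-4-11 (log2 fold change 0.44, SE 0.138, FDR 0.00783) and did not pass in HL-60, MOLM-13, NB-4 and NOMO-1. In MONO-MAC-6, CCND2 had 6 reads in the untreated libraries and 0 in the etoposide ones, which allows up to 0.0449 CPM for counting error only. CCND1 in MONO-MAC-6 and MV-4-11, and CCND2 in MONO-MAC-6, OCI-AML3 and THP-1, were the 5 pairs too low to test. CCND1 was there at 0.0833 CPM before and 0.45 CPM after etoposide in MONO-MAC-6, with 5 and 30 reads, and at 0.25 and 0.627 CPM in MV-4-11, with 14 and 46 reads. In neither line did the libraries of the conditions overlap. That alone is weak, since tested pairs that did not pass could also lack overlap, such as CDK6 in THP-1 (edgeR, FDR 0.167). CCND2 had 3 reads before and 11 after etoposide in OCI-AML3, and 13 and 8 in THP-1. Over the lines, untested ones included, the CCND1 difference of log2 CPM was above 0 in 8 of 10 lines. The mean change of CCND1 was 0.38, which did not pass (limma, FDR 0.143). Its 2 largest differences, 1.59 in MONO-MAC-6 and 1.10 in MV-4-11, came from lines too low to test. The mean of CCND1 thus rests in part on values near the floor. Without KASUMI-1, and with those 2 lines kept, it was 0.52 and passed (FDR 0.0424). The mean change of CCND3 was 0.29 (FDR 0.110), and it passed without F-36P (0.37, FDR 0.03) and with library size alone (0.37, FDR 0.0467). The mean change of CCND2 was 0.02 (FDR 0.946).

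CDK4 and CDK6, the kinases activated by D cyclins, fell or stayed below the threshold, and neither passed upwards in any line. CDK4 was the steadier gene. Its untreated level ran from 198 ± 1.43 CPM in HL-60 to 408 ± 56.7 CPM in F-36P, and the 8 neighbouring pairs from OCI-AML3 downwards did not differ beyond their spread. CDK6 ran from 24.8 ± 0.775 CPM in NB-4 to 710.0 ± 86.9 CPM in KASUMI-1, a ratio of 28.6. It was also low in HL-60 (80.6 ± 4.1 CPM) and OCI-AML3 (153 ± 10.8 CPM). Per base of exon, CDK4 exceeded CDK6 in all 11 lines in both conditions, with 57.6% of the pair in untreated NOMO-1 and 97.6% in untreated NB-4. CDK6 has merged exons of 12239 bases and CDK4 of 3094, and the order differs without this scaling: in untreated KASUMI-1 the levels not scaled by length were 710.0 CPM for CDK6 and 318 CPM for CDK4.

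CDK4 passed downwards in 7 of 10 lines: OCI-AML3, NB-4, MV-4-11, F-36P, KASUMI-1, MONO-MAC-6 and MOLM-13. Of the 10588 genes tested in all 10 lines, 13.6% did so in 7 or more. No fall reached 2-fold. The deepest was in KASUMI-1, with 305, 302 and 346 CPM before and 181, 231 and 189 CPM after etoposide (log2 fold change -0.67, SE 0.105, FDR 0.000428). MOLM-13 had 216, 210.3 and 204 CPM before and 126, 146 and 146 CPM after etoposide (log2 fold change -0.59, SE 0.0752, FDR 0.000102). F-36P had 466, 443 and 382 CPM before and 277, 298 and 295 CPM after etoposide (log2 fold change -0.57, SE 0.109, FDR 0.00122). The conditions did not overlap in any of these 3 lines. HL-60, NOMO-1 and THP-1 were the exceptions, with log2 fold changes of 0.12, 0.01 and 0.22 that did not pass. The mean over 10 lines was -0.26 (SD 0.297; limma, FDR 0.0376), and 21.6% of all genes passed upwards and 13.6% downwards in that test. The mean change of CDK4 lost its call with RLE size factors, with library size alone, without the filter, without replicate 1, and without OCI-AML3, NB-4, MV-4-11, F-36P, KASUMI-1, MONO-MAC-6 or MOLM-13, where the FDR lay between 0.0518 and 0.125.

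CDK6 had the deepest falls of the 9 genes. In F-36P it stood at 328, 431 and 445 CPM before and 123, 110.3 and 89 CPM after etoposide (log2 fold change -1.90, SE 0.16, FDR 8.62e-06). In KASUMI-1, the line with the highest level, it stood at 792, 724 and 612 CPM before and 221, 165 and 219.6 CPM after etoposide (log2 fold change -1.81, SE 0.135, FDR 3.92e-06). Both pairs were called repressed, and the highest etoposide library was far below the lowest untreated one. MV-4-11 came close to the fold limit, at 520.4, 501 and 507 CPM before and 287, 255 and 239.7 CPM after etoposide (log2 fold change -0.97, SE 0.0588, FDR 7.63e-12). MONO-MAC-6 (log2 fold change -0.54, SE 0.0434, FDR 7.02e-07), NB-4 (log2 fold change -0.58, SE 0.112, FDR 0.000364) and NOMO-1 (log2 fold change -0.41, SE 0.116, FDR 0.00986) also passed downwards. That made 6 of 10 lines, reached by 19.6% of genes tested in all, and 2 repressed, reached by 7.4%. In HL-60, MOLM-13, OCI-AML3 and THP-1 the log2 fold changes lay between -0.21 and 0.14 and did not pass. Over 10 lines the mean change of CDK6 was -0.63 (SD 0.696, below 0 in 9 of 10 lines; limma, FDR 0.0230), and without the filter on low counts its FDR was 0.0577. MOLM-13 and THP-1, which did not pass, began at 431 and 406 CPM, and F-36P at 378 CPM. Untreated THP-1 and F-36P did not differ beyond their spread (edgeR, FDR 0.245). Whether the change depends on the untreated level was not tested.

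**Figure D3:**
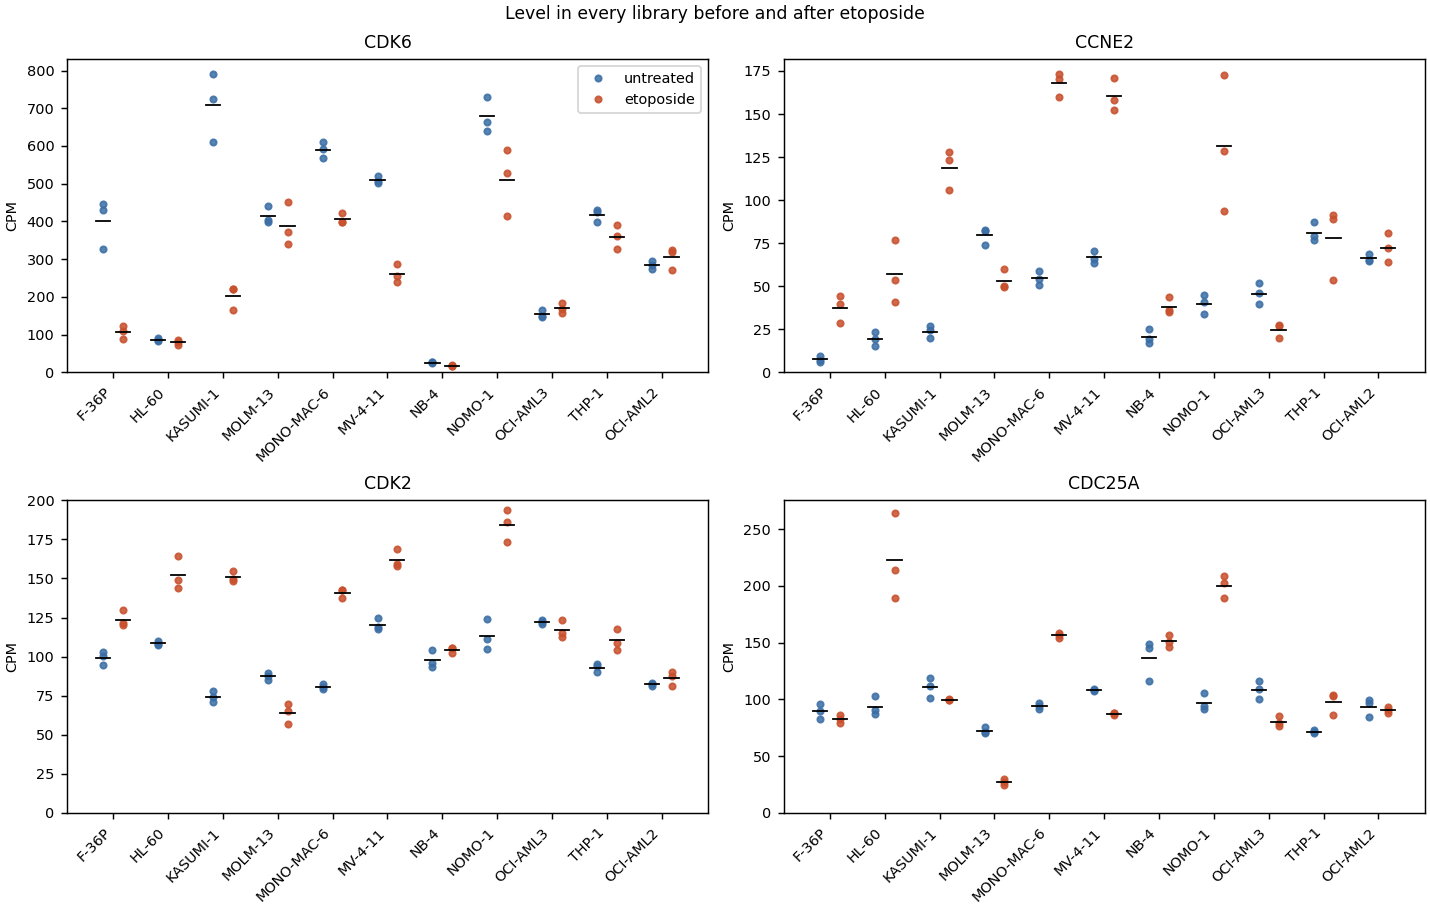
CPM of CDK6, CCNE2, CDK2 and CDC25A in every library, blue before and red after etoposide, for each cell line on the x axis. Black bars are means of 3 libraries and the y axes start at 0. CDK6 in KASUMI-1 goes from at least 612 CPM to at most 221 CPM, CCNE2 rises in 7 lines, and CDC25A rises in HL-60 and NOMO-1 and falls in MOLM-13.

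CCNE2, which activates CDK2 together with CCNE1, had the widest rise. Its untreated level was highest in MOLM-13 (82.8 ± 4.99 CPM) and THP-1 (78.9 ± 5.14 CPM), which did not differ beyond their spread (FDR 0.653). It was lowest in F-36P (7.01 ± 1.47 CPM), with HL-60, NB-4 and KASUMI-1 between 18.2 and 23.7 CPM. Etoposide induced CCNE2 in F-36P, HL-60, KASUMI-1, MONO-MAC-6, MV-4-11 and NOMO-1, and it passed without reaching 2-fold in NB-4. Of genes tested in all 10 lines, 2.17% were induced in 6 or more and 10.8% passed upwards in 7 or more.

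In F-36P, CCNE2 stood at 5.81, 7.13 and 9.46 CPM before and 44.1, 39.9 and 28.6 CPM after etoposide (log2 fold change 2.33, SE 0.217, FDR 1.56e-05). In KASUMI-1 it stood at 27, 24.3 and 19.7 CPM before and 123, 106 and 128 CPM after etoposide (log2 fold change 2.33, SE 0.129, FDR 8.54e-07). The fold changes were 5.02 and 5.01, and in both lines the conditions did not overlap. In MONO-MAC-6 it was at 59, 50.7 and 54 CPM before and 174, 160.0 and 170.2 CPM after etoposide (log2 fold change 1.62, SE 0.0623, FDR 2.19e-09). In NOMO-1 it was at 44.9, 41 and 34 CPM before and 93.8, 173 and 129 CPM after etoposide (log2 fold change 1.72, SE 0.183, FDR 1.21e-05). The 3 etoposide libraries of NOMO-1 were widely spread, yet the lowest lay above all untreated ones. HL-60 had 23.6, 15.4 and 19.6 CPM before and 53.6, 40.7 and 77 CPM after etoposide (log2 fold change 1.55, SE 0.201, FDR 0.000107). MV-4-11 had 70.6, 63.6 and 65.9 CPM before and 171, 158 and 153 CPM after etoposide (log2 fold change 1.27, SE 0.0629, FDR 3.2e-13). NB-4 had 24.9, 17.2 and 19.4 CPM before and 43.5, 36 and 35.1 CPM after etoposide (log2 fold change 0.90, SE 0.135, FDR 4.14e-05). In each of these 3 lines the conditions stayed apart.

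CCNE2 fell in MOLM-13 and OCI-AML3. MOLM-13 had 82, 74.1 and 82.7 CPM before and 60.2, 49.3 and 50.3 CPM after etoposide (log2 fold change -0.58, SE 0.0917, FDR 0.000418). OCI-AML3 had 45.8, 39.5 and 51.9 CPM before and 26.7, 27.7 and 19.8 CPM after etoposide (log2 fold change -0.89, SE 0.145, FDR 0.00174). No library overlapped in either line. These were also the lines with the most RNA of the CDK inhibitor CDKN1A after etoposide, at 1657 to 2105 CPM in MOLM-13 and 1503 to 1830 CPM in OCI-AML3. Over 10 lines Pearson's r of the CDKN1A and CCNE2 changes was -0.317. The part of CDKN1A in the result was not tested. CCNE2 in THP-1 did not pass (log2 fold change -0.06, SE 0.165, FDR 0.815). There 1 etoposide library lay at 53.4 CPM and the others at 88.9 and 91.1 CPM, and without replicate 2 the value was 0.24 (FDR 0.0272). The mean change of CCNE2 over 10 lines was 1.04 (SD 1.16; limma, FDR 0.0220). The difference was above 0 in 7 of 10 lines. Without KASUMI-1 it was 0.89 (FDR 0.0519), and without the filter on low counts 1.02 (FDR 0.0583).

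CCNE1 was the more even E cyclin. Its untreated level ran from 22.4 ± 1.95 CPM in NOMO-1 to 49 ± 6.31 CPM in F-36P, and no neighbours from F-36P down to OCI-AML2 differed beyond their spread. It rose in HL-60, from 32.1, 32.4 and 30.3 CPM to 45.6, 44.6 and 60.5 CPM (log2 fold change 0.67, SE 0.123, FDR 0.00115). MONO-MAC-6 (log2 fold change 0.54, SE 0.0535, FDR 3.96e-06), KASUMI-1 (log2 fold change 0.50, SE 0.0832, FDR 0.000575) and NOMO-1 (log2 fold change 0.49, SE 0.114, FDR 0.00329) also passed upwards. It fell in MOLM-13, from 40.3, 35.7 and 34.9 CPM to 19.5, 27.3 and 26.9 CPM (log2 fold change -0.59, SE 0.126, FDR 0.00271), and in OCI-AML3 (log2 fold change -0.29, SE 0.0732, FDR 0.0126). No pair reached 2-fold. The mean over 10 lines was 0.12 and did not pass (limma, FDR 0.463).

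The balance of the E cyclins changed with these levels. Per base of exon, CCNE1 held the larger share in 8 of 11 untreated lines and CCNE2 in MOLM-13, OCI-AML2 and THP-1. After etoposide CCNE2 led in 7 lines, now with KASUMI-1, MONO-MAC-6, MV-4-11 and NOMO-1. The set-aside etoposide libraries of OCI-AML2 are among these 7. Its share rose from 23.8% to 52.5% in KASUMI-1, from 7.58% to 31.8% in F-36P and from 47.1% to 66.9% in NOMO-1. In OCI-AML3 it fell from 36.7% to 27.7%. In these 4 lines the shares did not overlap between conditions. With the canonical transcript length, CCNE2 led 5 lines before and 8 after.

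**Figure D4:**
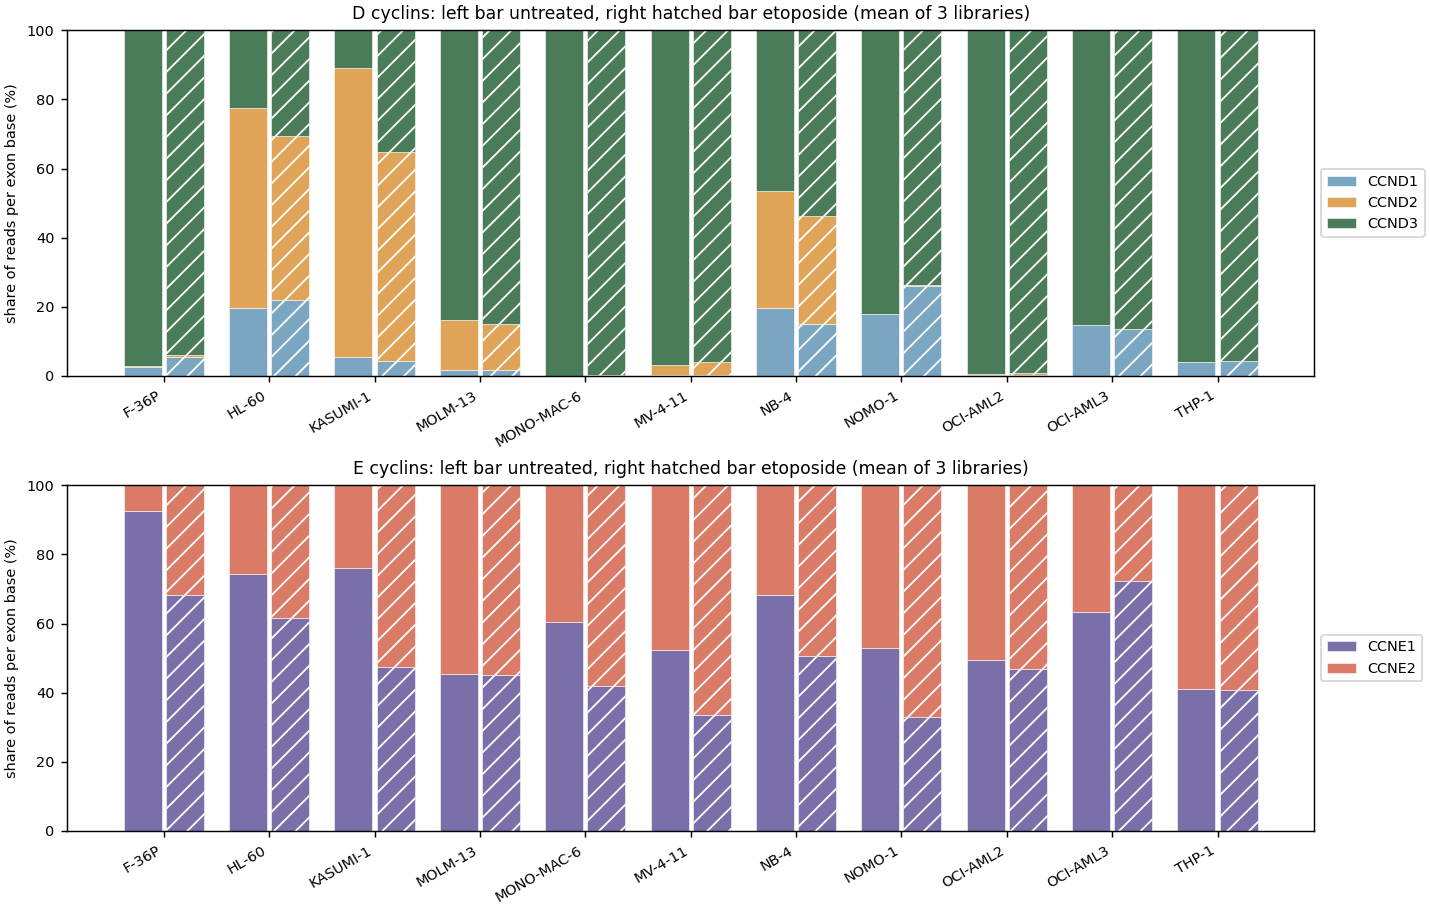
Share of each D cyclin (top) and E cyclin (bottom) in the reads per exon base of its family, in percent, for 11 cell lines. The left bar of each pair is untreated, the hatched right bar etoposide, both means of 3 libraries. The right bar of OCI-AML2 is from libraries that the study set aside. CCND3 is the largest part of the D cyclin bar in 9 lines, and the CCNE2 share grows in KASUMI-1 from 23.8% to 52.5%.

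CDK2, the partner of the E cyclins, had the narrowest range of untreated levels, from 74.4 ± 4.08 CPM in KASUMI-1 to 121 ± 2.93 CPM in OCI-AML3, a ratio of 1.63. Of its 10 pairs of neighbours in that order, 1 passed. Neighbours have the smallest differences by construction, so this count is not comparable with the 66.8% of all genes that passed over all contrasts of 2 untreated lines. It rose in 6 of 10 lines, against 15.6% of genes tested in all. In KASUMI-1, where it began lowest, it stood at 70.7, 74.2 and 77.9 CPM before and 149, 155 and 148 CPM after etoposide (log2 fold change 1.02, SE 0.0761, FDR 3.95e-06), the only induced pair. MONO-MAC-6 had 79.3, 80.3 and 82.6 CPM before and 143, 138 and 143 CPM after etoposide (log2 fold change 0.80, SE 0.0465, FDR 4.89e-08). NOMO-1 had 111, 124 and 105 CPM before and 194, 186 and 173 CPM after etoposide (log2 fold change 0.70, SE 0.0882, FDR 4.2e-05). Untreated and etoposide libraries did not overlap in these lines. HL-60 (log2 fold change 0.49, SE 0.0867, FDR 0.000893) and MV-4-11 (log2 fold change 0.43, SE 0.056, FDR 8.49e-07) rose as well. F-36P passed (log2 fold change 0.32, SE 0.105, FDR 0.0229) but lost the call under 11 of 17 other settings. CDK2 fell in MOLM-13, at 87.6, 89.3 and 85.4 CPM before and 56.9, 69.7 and 65.3 CPM after etoposide (log2 fold change -0.45, SE 0.0832, FDR 0.00111). Over 10 lines the mean change of CDK2 was 0.39 (SD 0.427, above 0 in 8 of 10; limma, FDR 0.0266). It was between 0.32 and 0.38, with an FDR of 0.0508 to 0.075, without the filter and without HL-60, KASUMI-1, MONO-MAC-6, MV-4-11 or NOMO-1.

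CDC25A, the phosphatase that activates CDK2, had the smallest F of the 9 genes for the difference between untreated lines. It ran from 69.6 ± 1.51 CPM in THP-1 to 130.2 ± 17.9 CPM in NB-4, and NB-4 was the only line that differed from its neighbour in the order. After etoposide it had the largest difference between lines of the 9 genes (edgeR interaction F test, F 64.2, FDR 1.29e-22), and 0.531% of all genes had a larger F. In HL-60 it stood at 103, 87 and 91.1 CPM before and 214, 189 and 264 CPM after etoposide (log2 fold change 1.25, SE 0.118, FDR 1.07e-05). In NOMO-1 it stood at 91.3, 106 and 94.3 CPM before and 202, 209 and 189 CPM after etoposide (log2 fold change 1.04, SE 0.0869, FDR 1.92e-06). In MOLM-13 it stood at 75.6, 71.1 and 70.1 CPM before and 24.6, 29.6 and 26.8 CPM after etoposide (log2 fold change -1.42, SE 0.0853, FDR 1.44e-06). The first 2 were called induced and the last repressed, each without overlap. Of genes tested in all 10 lines, 11.8% were induced in 2 or more and 17.1% repressed in 1 or more. MONO-MAC-6 (log2 fold change 0.73, SE 0.0458, FDR 9.01e-08) and THP-1 (log2 fold change 0.45, SE 0.123, FDR 0.00922) also rose. MV-4-11 (log2 fold change -0.31, SE 0.0563, FDR 5.79e-05) and OCI-AML3 (log2 fold change -0.44, SE 0.08, FDR 0.00306) fell. In F-36P, KASUMI-1 and NB-4 it did not pass, although CCNE2 rose there. Passing in at least 2 lines each way, as CDC25A did with 4 up and 3 down, was found in 12.9% of genes tested in all 10 lines. The mean of 0.15 did not pass (limma, FDR 0.605). The CDC25A promoter shown above was the only one of the 5 with an E2F-like word, which 7.35% of all promoters held. CCNE2 and CDK2 had no promoter entry, and a link between the word and the change was not tested.

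The change differed between lines for each of the 9 genes (edgeR interaction F test over 60 libraries), as it did for 74.5% of all genes. After CDC25A the F was 39.1 for CDK6, 36.8 for CCNE2 and 33.6 for CDK2, with 2.15%, 2.53% and 3.21% of genes above them. It was 22.9 for CCND2, 19.0 for CCND3, 15.2 for CCNE1, 14.5 for CCND1 and 11.2 for CDK4. By line, HL-60 had 6 members up and 0 down of 9, where 17.5% of its genes passed upwards and 15% downwards. NOMO-1 had 5 up and 1 down (28.8% and 23.9% of genes) and MONO-MAC-6 5 up and 2 down of 7 (31.8% and 30.5%). MOLM-13 had 0 up and 5 down of 9 (28.1% in each direction). OCI-AML3 had 1 up and 4 down of 8 (22.4% and 17.7%) and NB-4 1 up and 3 down of 9 (31% and 28.7%). F-36P had 4 up and 3 down (35% and 25%), KASUMI-1 4 and 4 (31.5% and 28.6%), and MV-4-11 3 and 3 of 8 (33.5% and 30.4%). THP-1 had 1 up, CDC25A, and 0 down of 8 (16.1% and 16%). In THP-1 the unadjusted p of edgeR was below 0.05 for 3 of the 8.

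Over the 10 lines the changes of the E cyclins, CDK2 and CDC25A had positive correlations of unequal size. Pearson's r of the log2 differences was 0.891 for CCNE1 with CDK2, 0.821 for CCNE2 with CDK2 and 0.695 for CCNE1 with CCNE2. With CDC25A it was 0.773 for CCNE1, 0.622 for CDK2 and 0.478 for CCNE2, and 0.688 for CDK4. CCNE2 and CDK6 had r of -0.786. These are descriptions over 10 points in which both genes come from the same libraries and scaling, and they carry no p. Before the drug, over 11 lines, r was -0.168 for CCNE1 with CDK2, 0.01 for CCNE2 with CDK2, -0.091 for CCNE1 with CDC25A and 0.327 for CCNE2 with CDK6. By the likeness of untreated levels over 11 lines, among 13150 genes, CCNE2 was closest to TFEB (r = 0.969) and CCR2 (0.968), and CDK4 to PRRT2 (0.974) and TAL1 (0.942). CCND1 was closest to BAMBI (0.931) and ZNF655 (0.867), CCND2 to RTRAF (0.919) and RPL4 (0.908), and CCND3 to TNFSF10 (0.938) and PRDX2 (0.927). CCNE1 was closest to MOB3B (0.943) and LINC01011 (0.898), and CDK2 to FIS1 (0.891) and LAT (0.834). CDK6 was closest to SEPTIN11 (0.919) and PSTPIP2 (0.916), and CDC25A to SIN3A (0.933) and DNA2 (0.876). Each of these closest genes was picked for the highest r among 13150 genes over 11 points. Such a search returns high values by selection alone. The level reached by chance was not tested, so no link is drawn from this list.

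The other genes of the pathway were read from 5 lists chosen by their role, and their counts stand beside 27.7% of all pairs passing upwards and 24.4% downwards, with a median of 0.01. Of the 7 CDK inhibitor genes, 50 pairs were tested, 24 passed upwards and 10 downwards, with a median log2 fold change of 0.22. CDKN1A had the largest mean change, 3.31 (limma, FDR 7.28e-05), and was induced in all 10 lines. In HL-60 it went from 0.261, 0.258 and 0.17 CPM to 3.8, 3.05 and 5.63 CPM, a rise of 4.14 on the log2 scale at the lowest level of the 10 lines. In OCI-AML3 it went from 33.2, 36.6 and 41.1 CPM to 1503, 1555 and 1830 CPM, a rise of 5.46. CDKN1B (p27), an inhibitor of CDK2, had the lowest mean of the list, -0.20, which did not pass (FDR 0.0809). Of 13 pocket protein and E2F genes, 40 of 127 pairs passed upwards and 39 downwards, with a median of -0.04. E2F2, an activating E2F, had the highest mean (1.06, FDR 0.00298) and E2F5, a repressive one, the lowest (-1.09, FDR 0.00137).

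E2F1, the E2F best known for driving the E cyclins and CDC25A, passed in 9 of 10 lines: upwards in HL-60 (log2 fold change 1.20), NB-4 (0.85), MONO-MAC-6 (0.75), F-36P (0.71), NOMO-1 (0.67) and KASUMI-1 (0.54), downwards in MOLM-13 (-1.01), OCI-AML3 (-0.34) and MV-4-11 (-0.18). THP-1 did not pass (0.25). Over 10 lines its change had r of 0.845 with that of CDC25A, 0.728 with CCNE2, 0.694 with CCNE1 and 0.663 with CDK2, again from shared libraries. E2F8, a repressive E2F named here after its values were seen, had higher r with CCNE1 (0.928), CDK2 (0.922) and CCNE2 (0.793) and a lower one with CDC25A (0.723). E2F7 had lower r than E2F1 with each of them: 0.571 with CCNE1, 0.585 with CDK2, 0.411 with CCNE2 and 0.362 with CDC25A. Genes of kinase activation and turnover passed upwards in 24 of 140 pairs and downwards in 50, with a median of -0.11. CDC25C, a mitotic phosphatase, had the highest mean of these (0.42, FDR 0.0313) and SKP2, which targets p27 for degradation, the lowest (-0.54, FDR 0.00122).

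The 13 S phase genes also moved in different directions in different lines. In MOLM-13 all 13 passed downwards, with a median of -1.03, and in OCI-AML3 8 did and 1 passed upwards. In NOMO-1 9 passed upwards and 1 downwards, in MONO-MAC-6 8 and 1, and in HL-60 and KASUMI-1 7 and 1. Over 130 pairs 46 passed upwards and 43 downwards, with a median of 0.01. RRM2, a subunit of ribonucleotide reductase, had the highest mean (0.49, FDR 0.0911) and CCNA2 (cyclin A2), the next partner of CDK2, the lowest (-0.42, FDR 0.0273). CCNA2 passed downwards in 7 of 10 lines and upwards in KASUMI-1 (log2 fold change 0.41). CCNE1, CCNE2, CDK2 and CDC25A all rose in HL-60, NOMO-1 and MONO-MAC-6, where CCNA2 had log2 fold changes of -0.30, -0.26 and -0.08, the last of which did not pass. Over 10 lines the CCNA2 change nevertheless had r of 0.886 with that of CDK2, 0.735 with CCNE1, 0.661 with CCNE2 and 0.454 with CDC25A. Of 5 mitotic genes 9 of 50 pairs passed upwards and 24 downwards, with a median of -0.27, from CDK1 (mean 0.22, FDR 0.19) to CCNB1 (cyclin B1; mean -0.57, FDR 0.00211).

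**Figure D5:**
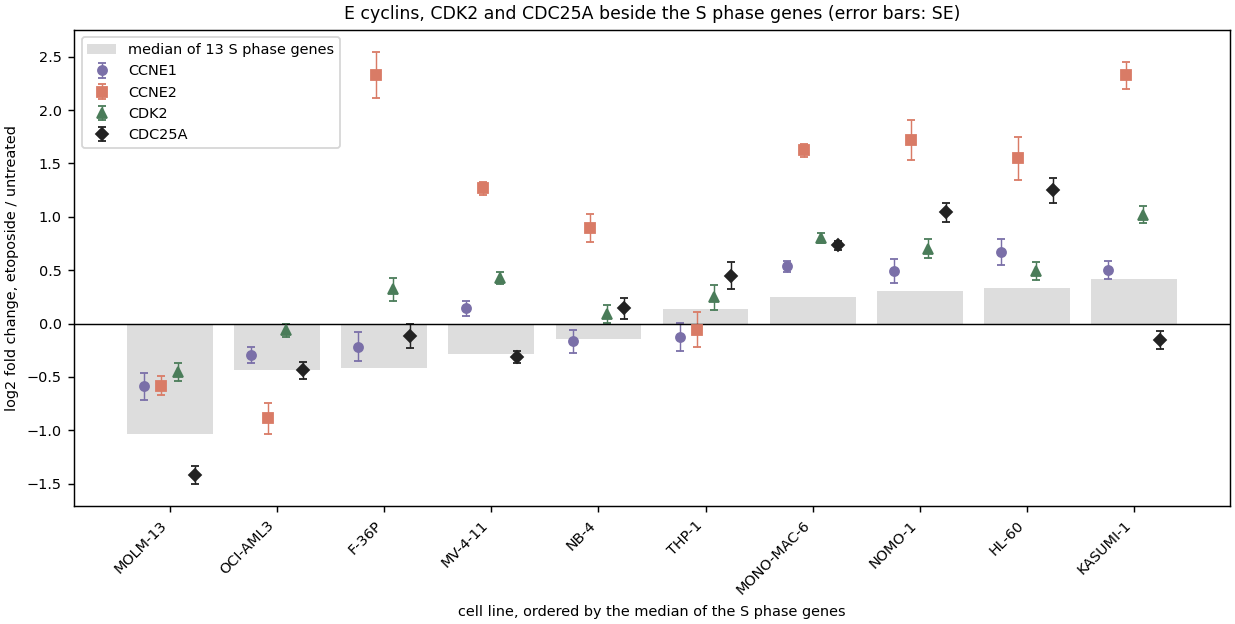
Log2 fold change of CCNE1, CCNE2, CDK2 and CDC25A (symbols, error bars are SE from edgeR) beside the median of 13 S phase genes (grey bars) in 10 cell lines, ordered by that median. MOLM-13 has the lowest median, -1.03, with all 4 genes below 0, and CCNE2 in F-36P is at 2.33 although the S phase median there is -0.42.

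In OCI-AML2 none of the 9 genes passed (edgeR), none had an unadjusted p below 0.05, the smallest being 0.109, and edgeR's exact test and DESeq2 also passed 0. Only 3 of 13604 genes passed upwards there (0.0221%) and 0 downwards, and CDKN1A was 1 of the 3 (44.7, 48.1 and 44.7 CPM before, 80.0, 73.1 and 75.0 CPM after). The log2 fold changes of the 9 genes lay between -0.05 and 0.28. CCNE2 was at 65, 68.6 and 64.7 CPM before and 72.1, 80.7 and 64 CPM after etoposide, with overlap between the conditions. CDK6 was at 285, 295 and 275 CPM before and 319.7, 325 and 272 CPM after etoposide, also with overlap. Whether the quality of the set-aside libraries bears on this was not tested.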

How the data were processed

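RNA of 11 AML cell lines, untreated or given etoposide for 24 hours at the cell line's own IC50, was sequenced in 3 libraries per group (66 libraries), each from cells of 3 pooled wells. The authors checked the reads with FastQC 0.11.5 and mapped them with STAR 2.5.3a to GRCh38.p7 with gencode 25, and deposited whole-number read counts per gene. The submitters' processing notes also name edgeR 3.20.1. Each deposited file pairs a gene ID with 1 count. The strand setting is not given in the sources used here. Reads were found for 484 of 756 genes contained in an opposite-strand exon of gencode 44. Unstranded counting gives 0 there only where gencode 25 holds the same exon, so this does not settle the strand setting. Of 58037 gene IDs, 45 copies on the Y pseudoautosomal region, all with 0 reads, were left out. Names, lengths and positions came from gencode 44 on GRCh38, and 56948 of the remaining 57992 IDs had a name. Promoter sequence came from RefSeq (GRCh38.p14).

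Libraries held 17997404 to 24101670 reads on genes. A gene absent from 3 libraries can still have up to 3 counts over the group, and such limits cover counting error only. No pair of replicates agreed within sampling noise (chi-square per degree of freedom at least 2.049), so no library was counted as a repeat of another.

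Within each line, edgeR 4.0.16 (quasi-likelihood test, TMM, filterByExpr at its settings of 10 for single counts and 15 for totals) compared etoposide with untreated libraries, with Benjamini-Hochberg adjustment over all genes tested. A pair that passed had an FDR under 0.05, and one called induced or repressed also changed by over 2-fold. limma 3.58.1 tested the mean of 1 log2 difference per line (prior count 2) over 10 lines. edgeR tested the line-by-treatment interaction over 60 libraries and untreated levels over 33. SE was taken from the F statistic. Shares within a family used reads per base of merged exons in each library. DESeq2 1.42.0, edgeR's exact test, other normalizations, filters, a replicate block, and omission of each replicate or line were tried. Omission of each line other than F-36P, and the canonical transcript length, were added after seeing the data. The edgeR, DESeq2 and limma fits were tested on simulated counts. Python 3.11.15 and R 4.3.3 were used.

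Only NB-4 met the rule for treating replicate numbers as pairs, which was set on the lowest correlation of same-numbered deviations. The correlations there were 0.265, 0.22 and 0.152. The pairing comes from these data, since the labels give only the number. The genes and the lists were chosen with earlier results of these data known. The text names all 9 genes, the highest and lowest mean of each pathway list, CDKN1A, E2F1 and CCNA2. It also names the 2 genes closest to each member in untreated level and, after their values were seen, E2F7 and E2F8. 1 marker gene is not reported here.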

Additional observations from a re-analysis of the deposited data

Results flagged for a closer look

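The etoposide change of each of the 9 genes differed between the 10 cell lines by the test of the difference itself (edgeR interaction F test over 60 libraries, adjusted over all genes), as did that of 74.5% of all genes. The F was 64.15 for CDC25A, 39.14 for CDK6, 36.83 for CCNE2 and 33.63 for CDK2. It was 22.86 for CCND2, 18.96 for CCND3, 15.2 for CCNE1, 14.5 for CCND1 and 11.15 for CDK4. CDC25A, CCNE1, CCNE2 and CDK2 all passed upwards in HL-60, MONO-MAC-6 and NOMO-1, and CDC25A, CCNE1, CCNE2 and CDK2 all passed downwards in MOLM-13. For CDK6 the lines differed in depth rather than in sign among those that passed, from -1.90 in F-36P to -0.41 in NOMO-1 on the log2 scale. Dixon's test marked no single line for any gene: the largest gap was 0.347 of the range, for CDC25A in MOLM-13, below the critical value. The test cannot show 2 lines that share an extreme. For CDK6 the log2 differences were -1.85 in F-36P and -1.77 in KASUMI-1, so the gap was 0.042.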

How the results depend on the processing

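The members' counts of calls stayed within 1.5 times in most settings: 120 of 129 values over counts did so. Repressed pairs, 3 in the main fit, were 3 to 5 when a replicate was left out, and without the fold change minimum 30 pairs were called induced and 25 repressed. The number of genes whose mean over 10 lines passed, 4, was 0 without a filter on low counts and 2 without KASUMI-1, MONO-MAC-6 or MV-4-11. CCNE2 led 5 untreated lines rather than 3 with the canonical transcript length. The causes were not tested.

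Several values changed sign, none of which passed the FDR in the reported fit. Of these pairs, CCNE2 in THP-1 passed without replicate 2 (0.242, FDR 0.0272), CDK6 in MOLM-13 without replicate 1 (-0.15, FDR 0.0403) and without etoposide replicate 1 (-0.20, FDR 0.0134), and CCNE1 in F-36P without untreated replicate 3 (-0.41, FDR 0.0169). CDK4 in NOMO-1 was -0.02242 with RLE size factors, -0.02242 with DESeq2 and -0.01356 in 1 fit of 60 libraries. With library size alone CCNE1 in F-36P was 0.02683, CDC25A in F-36P 0.1286, CCND2 in HL-60 0.04878, CDC25A in KASUMI-1 0.02288, CCND2 in NB-4 0.09154, CCNE1 in NB-4 0.03864 and CCNE2 in THP-1 0.006442. CDC25A in F-36P was 0.03916 with at least 5 CPM. The mean change of CCND2 was -0.1158 with a prior count of 0.25, -0.1696 without F-36P, -0.02499 without MV-4-11 and -0.07768 without OCI-AML3. With each replicate left out, the ranges were -0.106 to 0.04794 for CDK4 in NOMO-1, -0.0779 to 0.007072 for CCND3, -0.08597 to 0.01136 for CCNE1, -0.02981 to 0.5358 for CCND1 and -0.1594 to 0.1083 for CCND2 in OCI-AML2. They were -0.09758 to 0.008117 for CCND2 in HL-60, -0.0276 to 0.1667 for CCND1 and -0.1966 to 0.003691 for CDK6 in MOLM-13, -0.1911 to 0.242 for CCNE2 in THP-1, -0.008491 to 0.2122 for CCND1 in OCI-AML3, and -0.07091 to 0.1201 for the mean change of CCND2.

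With the replicate number as a block, 30 pairs passed upwards and 24 downwards. Outside NB-4 the block lost CDK2 in F-36P (0.32, FDR 0.0796), CCND3 in OCI-AML3 (0.25, FDR 0.0954) and CCNE1 in OCI-AML3 (-0.29, FDR 0.0558), and gained CCNE1 in MV-4-11 (0.14, FDR 0.0366). Every sample correlated best with its own number only in MV-4-11, NB-4 and OCI-AML2, a hint from the data. The 5 pairs too low to test had at most 46 reads per group, in libraries of 17997404 to 24101670 reads on genes.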
